A study of Mus musculus with 6 samples.

Results

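The genes described here are the regulators that switch on skeletal muscle and a set of proteins of the sarcomere, the contractile unit of striated muscle, read as a check of muscle cells in cultures of mouse embryonic fibroblasts. They are 10 genes chosen by name: the regulators Myod1, Myf5, Myog and Myf6, and the sarcomere genes Acta1, Actc1, Myh3, Myl1, Tnnt1 and Tnnt2. A locus counted as a member when its gene name was 1 of these, and no measured value entered the choice. Each of 9 members matched 1 locus among 39495 loci in the files; Acta1 was not analysed here.

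Mouse embryonic fibroblasts are primary cells grown out of embryos, and such cultures can carry other cell types of the embryo along. The study compared 3 libraries from cells of STC1+/+ (wild-type) mice with 3 from STC1-/- (knockout) mice, which lack stanniocalcin-1, a secreted glycoprotein. Both genotypes were on a C57BL/6 background and were grown in the same serum-containing medium with antibiotics. The sources used here give neither the age of the embryos nor the way the allele was disrupted. Nothing in the labels tells separate embryos or cultures from repeat libraries, so a p-value here reflects just the spread among the libraries at hand, which may be technical.

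Skeletal muscle forms when progenitors that express the paired-box factors Pax3 and Pax7 turn on the myogenic regulatory factors, a family of basic helix-loop-helix transcription factors. Myf5 and Myod1 commit cells to the lineage, Myog drives terminal differentiation, and Myf6 acts in commitment and in the mature fibre. These factors bind DNA as dimers with E proteins at E-boxes, the letters CANNTG, often beside sites for MEF2 factors, and so activate sarcomere genes. Forced expression of Myod1 is known for turning fibroblasts into muscle.

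The promoters of 3 members are shown because they hold the E-box letters and because their genes stand for the stages of the program: Myog for the regulators, Myh3 for the embryonic sarcomere and Tnnt2 for the most abundant member. Each line gives the 250 bases upstream of the gene start in RefSeq (GRCm38.p6), 5′ to 3′ on the gene's strand, with every CANNTG in capitals. The windows are chr1:134289754-134290003 for Myog, chr11:67078050-67078299 for Myh3 and chr1:135836084-135836333 for the upstream start of Tnnt2, all on the plus strand.
Myog: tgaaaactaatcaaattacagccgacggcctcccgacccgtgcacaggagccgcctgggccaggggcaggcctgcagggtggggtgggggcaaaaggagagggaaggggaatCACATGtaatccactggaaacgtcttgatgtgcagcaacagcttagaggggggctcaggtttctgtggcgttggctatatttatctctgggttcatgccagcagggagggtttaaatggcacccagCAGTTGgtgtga
Myh3: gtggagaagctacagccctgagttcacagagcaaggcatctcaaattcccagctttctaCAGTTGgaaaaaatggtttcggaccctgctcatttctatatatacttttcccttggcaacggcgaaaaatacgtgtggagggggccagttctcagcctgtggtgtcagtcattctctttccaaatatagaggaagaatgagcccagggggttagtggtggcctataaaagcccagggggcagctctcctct
Tnnt2: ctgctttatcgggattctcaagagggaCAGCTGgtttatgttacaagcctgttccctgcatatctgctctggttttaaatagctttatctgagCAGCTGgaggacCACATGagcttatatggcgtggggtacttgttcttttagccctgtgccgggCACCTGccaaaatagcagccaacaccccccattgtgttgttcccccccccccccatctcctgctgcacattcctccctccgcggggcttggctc

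The Tnnt2 window held 4 matches to CANNTG, which reads the same on both strands: CAGCTG at 2 places, CACATG and CACCTG. As many matches or more were found in 3.84% of 32851 RefSeq promoters of the same length, and at least 1 match in 66.2% of them. Myog had 2 matches, CACATG starting 138 bases and CAGTTG starting 12 bases before the gene start, a number reached by 31.8% of promoters. Myh3 had a single match, 191 bases before the start, and also the letters TATAAA, which 7.59% of promoters held on either strand. Windows were found for 7 of the 9 members; Myod1 and Myf6 are named only. Those of Myf5 and Actc1 held no CANNTG, and those of Myl1 and Tnnt1 held 1 each. The MEF2 consensus, present in 2.92% of promoters, was matched in no member window, and the CArG box, bound by serum response factor and present in 1.47%, was matched once, in Actc1. Sites that depart from the MEF2 consensus were not counted, so a window without a match can still hold such a site. These matches describe letters in short windows and say nothing of binding.

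The libraries held 71488701, 42509592 and 51153221 estimated fragments in wild-type replicates 1 to 3 and 21882092, 37934030 and 44552311 in knockout replicates 1 to 3. The targeted gene Stc1 stood at 31.8, 6.82 and 7.62 CPM in the wild-type libraries and at 0.282, 0 and 0 CPM in the knockout libraries, where CPM are fragment counts brought to the same effective depth by TMM scaling. The fibroblast label was checked against its markers: all 11 analysed fibroblast markers had fragments in every library, with summed FPKM (fragments relative to transcript length and sequencing depth) of 4608 to 7553 in wild-type and 2708 to 3823 in knockout libraries. The 15 macrophage markers were also present in every library, with none at 0, and their summed FPKM differed widely: 191, 1043 and 9447 in wild-type replicates 1 to 3 and 1956, 277 and 309 in knockout replicates 1 to 3. Wild-type replicate 3 stands apart by this sum, so values without it are also given for Tnnt1, Tnnt2, Mef2c, Rapsn and the marker lists of the other cell types.

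The 4 regulators and Myl1 were at the edge of detection, and most member fragments came from Tnnt2. Together the 9 members took 911 of 265977003 fragments in the loci kept, of which Tnnt2 had 672 and the 4 regulators had 6. Per length, Tnnt2 had the highest mean over the 6 libraries (1.78 FPKM), followed by Tnnt1 (0.919), Actc1 (0.107), Myh3 (0.0175), Myog (0.00859), Myl1 (0.00543) and Myod1 (0.00209), while Myf5 and Myf6 were at 0. In this order Tnnt2 and Tnnt1 overlapped between libraries, every Tnnt1 value lay above every Actc1 value, and each further neighbour overlapped with the next. Tnnt2 lay above 68.6% of all loci by mean FPKM and Tnnt1 above 65.4%, but 35.7% of loci were at 0 in all libraries. Only these 2 members reached 1 FPKM in any library.

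**Figure D1:**
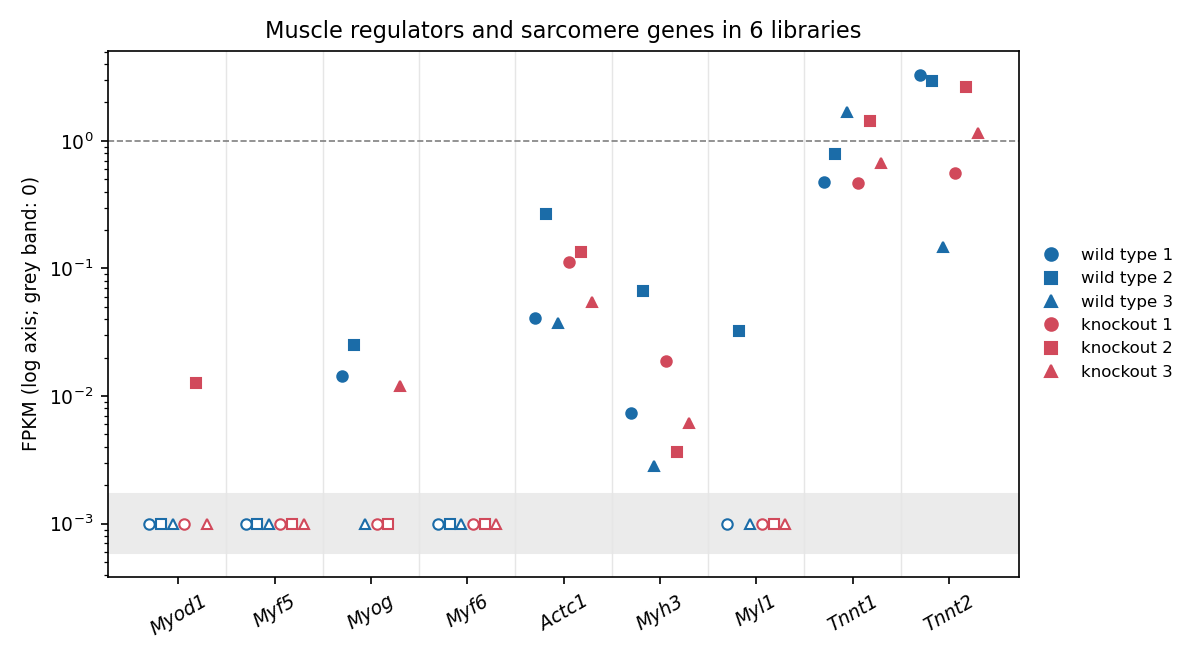
FPKM of the 9 analysed members in each library (log axis; open symbols in the grey band are 0; the dashed line marks 1 FPKM), wild type in blue and knockout in red. The regulators sit at or near 0, Actc1 and Myh3 below 0.27 FPKM, and Tnnt1 and Tnnt2 between 0.148 and 3.3 FPKM, with both genotypes mixed.

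Of the regulators, Myf5 (chr10:107482908-107486134, minus strand of mm10) and its neighbour Myf6 (chr10:107492860-107494729, minus strand) had 0 fragments in all 6 libraries. Myod1 (chr7:46376474-46379092, plus strand) had a single fragment, in knockout replicate 2, at 0.0125 FPKM. Myog (chr1:134290004-134292547, plus strand) had 2, 2 and 0 fragments in the wild-type and 0, 0 and 1 in the knockout libraries, or at most 0.025 FPKM. A count of 0 allows up to 3 counts, which is 0.0425 CPM in the deepest library, wild-type replicate 1, and 0.141 CPM in the shallowest, knockout replicate 1. A difference in the regulators below these limits was not detectable at this depth. All 4 genes are protein-coding with 3 exons in the annotation, and none shared an exact stretch of 50 bases with a transcript of another gene.

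Actc1 encodes cardiac alpha-actin, which is also the main sarcomeric actin of embryonic skeletal muscle (chr2:114047282-114053548, minus strand, protein-coding). Its fragments numbered 5, 19 and 3 in the wild-type and 4, 6 and 4 in the knockout libraries, or 0.0407, 0.267 and 0.0374 FPKM and 0.112, 0.134 and 0.0542 FPKM. Wild-type replicate 2 was the highest, and the other wild-type libraries lay below all 3 knockout libraries, so the groups overlapped. A noncoding transcript on the other strand, A530058N18Rik, overlaps Actc1 and had at most 3 fragments in a library; the kit marks strand, but the sources used here do not name the strand setting used in counting. No exact 50-base stretch of Actc1 occurred in another gene's transcripts, the abundant actins included; near matches were not counted.

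Myh3 encodes the embryonic heavy chain of sarcomeric myosin (chr11:67078300-67102291, plus strand, 40 exons). Its fragments were 4, 21 and 1 in the wild-type and 3, 1 and 2 in the knockout libraries, at 0.00734, 0.0661 and 0.00281 FPKM and 0.0189, 0.00365 and 0.00611 FPKM. Wild-type replicate 2 was again the highest. In CPM its value of 0.492 had an exact 95% Poisson interval of 0.304 to 0.752, which covers counting error only and lies above that of wild-type replicate 1 (0.0154 to 0.145). A small share of its 50-base stretches, 4.76%, is also in other genes' transcripts, mainly Myh13, Myh2 and Myh1, so some fragments may belong to these relatives. Myl1, a fast-fibre essential light chain of myosin (chr1:66924295-66945404, minus strand), had a single fragment, in wild-type replicate 2, and shares 11.7% of its stretches with the pseudogene Mylf-ps.

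Troponin T anchors the troponin complex, the calcium switch of the thin filament, to tropomyosin. Its slow skeletal form, Tnnt1 (chr7:4504570-4516382, minus strand, protein-coding), had 25, 21 and 60 fragments in the wild-type and 8, 29 and 16 in the knockout libraries. That is 0.472, 0.793 and 1.69 FPKM in wild type and 0.468, 1.42 and 0.67 FPKM in knockout. Wild-type replicate 3 was the highest and knockout replicate 2 next, and the groups overlapped. The mean was 0.696 ± 0.478 CPM in wild type and 0.503 ± 0.238 CPM in knockout (SD, n = 3 each). On the log2 scale the knockout level minus the wild-type level was -0.45 (standard error 0.62), with an approximate 95% interval of -1.68 to 0.77 and an adjusted p of 0.829 in edgeR's quasi-likelihood test. Without wild-type replicate 3 the sign turned, to 0.26.

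Tnnt2, the cardiac form that embryonic skeletal muscle also makes (chr1:135836386-135852261, plus strand, protein-coding), was the most abundant member. Its fragments numbered 305, 158 and 9 in the wild-type and 17, 120 and 63 in the knockout libraries, or 3.3, 2.93 and 0.148 FPKM and 0.556, 2.63 and 1.15 FPKM. Wild-type replicates 1 and 2 and knockout replicate 2 were high and wild-type replicate 3 was the lowest of all, so the spread within wild type exceeded the distance between the groups. The mean was 2.73 ± 2.23 CPM in wild type and 1.8 ± 1.26 CPM in knockout (SD, n = 3 each). Its log2 fold change was -0.59 (standard error 1.07), with an approximate 95% interval of -2.7 to 1.51 and an adjusted p of 0.871 in edgeR. The value ranged from -1.3 without knockout replicate 2 to -0.11 without wild-type replicate 1, was -1.14 without wild-type replicate 3, and was 0.09 in limma-voom.

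**Figure D2:**
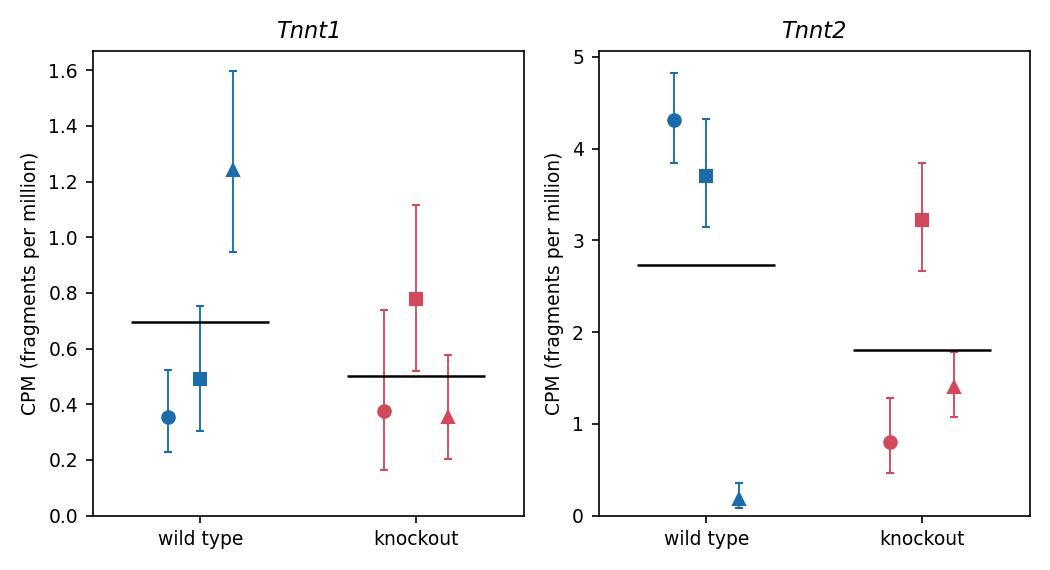
CPM of Tnnt1 (left) and Tnnt2 (right) in each library, by genotype; circles, squares and triangles are replicates 1, 2 and 3, bars are exact 95% Poisson intervals (counting error only) and horizontal lines are group means. Wild-type replicate 3 holds the highest Tnnt1 value (1.24 CPM) and the lowest Tnnt2 value (0.186 CPM), and the groups overlap for both genes.

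The pair of troponin T genes did not follow one another over the libraries: Pearson's r of their log2 CPM was -0.55 over 6 libraries, given as a description. Wild-type replicate 3, with the lowest Tnnt2 and the highest Tnnt1, also held the highest macrophage marker sum, 9447 FPKM; knockout replicate 1, with the second-highest sum, 1956 FPKM, had the next lowest Tnnt2. The part of macrophages in these levels was not tested. In bulk RNA, fewer cells of a type and less RNA per cell cannot be told apart.

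In the test over all loci, 2 of the 9 members passed the filter on low counts. Of these 2, 0 passed an adjusted p of 0.05, and the background was 0 of 15673 loci, or 0%. Even the targeted gene Stc1 (log2 fold change -7.72, unadjusted p 0.00313 in edgeR) was not called, with an adjusted p of 0.763. At an unadjusted p under 0.05, edgeR picked 607 loci (3.87%) and no member; leaving out 1 library moved this number of loci between 270 (without knockout replicate 3) and 2939 (without wild-type replicate 1), again with no member. DESeq2 called 61 of 18613 loci (0.328%), and the log2(FPKM + 0.1) fit in limma called 1 (0.00638%), no member among them. At an unadjusted p under 0.05, DESeq2 picked 5.2% of loci, limma-voom 3.41%, the log2(FPKM + 1) fit 4.19% and the log2(FPKM + 0.1) fit 4.49%, and each picked 0 members. With no filter, 7 members entered the edgeR fit, with unadjusted p from 0.235 (Myod1) to 0.666 (Actc1). The groups of Tnnt1 and of Tnnt2 overlapped in CPM, while 10.6% of the loci tested had groups free of overlap. The authors' deposited table marks Myod1, Myf5, Myog, Myf6, Actc1, Myh3 and Myl1 as not tested, with a q-value of 1. In the authors' deposited table the mean FPKM of Actc1 was 0.115 in wild type and 0.0875 in knockout.

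By the rule for likeness, the loci outside all lists whose log2 CPM most resembled the mean of Tnnt1 and Tnnt2 over the 6 libraries, among 11622 searched, were Spats2l (Pearson's r 0.983), the Ras exchange factor Sos1 (0.978), the collagen gene Col12a1 (0.975), the sphingosine-1-phosphate receptor S1pr3 (0.971) and the small nucleolar RNA host locus 1500012F01Rik (0.961). S1pr3 was at 222, 172 and 41.6 CPM in wild-type replicates 1 to 3 and at 54, 184 and 72.3 CPM in knockout replicates 1 to 3. These 5 loci were high in wild-type replicates 1 and 2 and knockout replicate 2 and low in the other libraries, the pattern of Tnnt2. For Tnnt2 alone, a search added after values were seen, the closest were Zdbf2 (0.995), the cadherin Cdh11 (0.992) and Phldb1 (0.992). With 6 libraries and so many loci, such values are a description only.

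Other genes of muscle were taken from 12 lists outside the members, 160 loci in all, of which 93 passed the filter. In edgeR 0 of the 93 were called; at an unadjusted p under 0.05, 1 was higher and 5 were lower in knockout, against 1.6% and 2.27% of all loci. Their median log2 fold change was -0.04 (42 positive, 51 negative), against -0.05 over all loci tested. The named genes below are the 2 of each list with the smallest p in edgeR, whose adjusted p all lay between 0.763 and 0.82, so none of the differences passed the test.

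**Figure D3:**
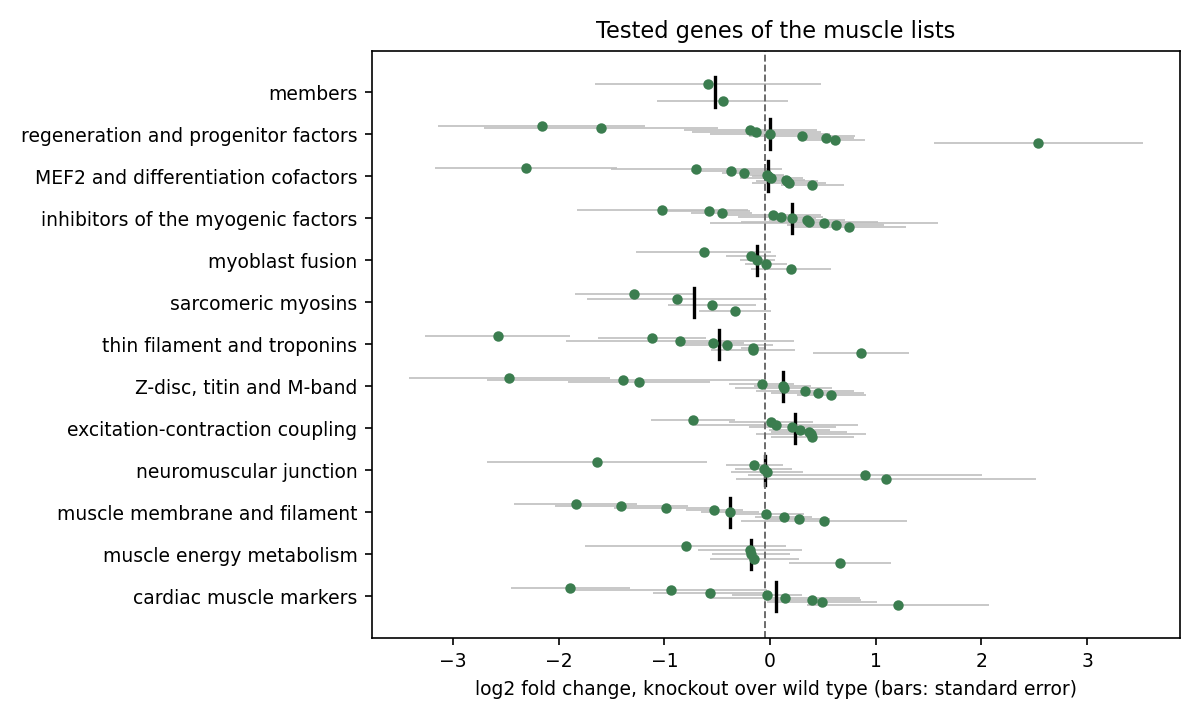
Log2 fold change (knockout over wild type) of every tested gene in the members and the 12 muscle lists (dots, with standard errors as grey bars); black ticks are list medians and the dashed line is the median of all loci, -0.05. List medians lie between -0.72 (sarcomeric myosins) and 0.24 (excitation-contraction coupling).

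Among 11 progenitor factors, 9 were tested, 5 with positive and 4 with negative fold changes and a median of 0. Pax3 was at 2.58, 0.586 and 2.63 CPM in the wild-type and 2.35, 7.27 and 24.1 CPM in the knockout libraries. Knockout replicates 3 and 2 were the highest, but knockout replicate 1 lay within the wild-type range. The means were 1.93 ± 1.16 and 11.2 ± 11.4 CPM (SD, n = 3 each), and the log2 fold change was 2.54 ± 0.99 (standard error; unadjusted p 0.0428, adjusted p 0.763 in edgeR), or 1.32 without knockout replicate 3. Eya2, a coactivator that works with homeobox factors, was at 1.95 ± 1.61 CPM in wild type and 0.434 ± 0.0992 in knockout. The groups overlapped, with wild-type replicate 1, at 0.184 CPM, below every knockout library. The pseudogene Gm11460 lies on the other strand of Eya2, with 12 to 67 fragments in a library.

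Pax7, the factor of muscle stem cells, lay below the filter and is named after its values were seen. Its fragments numbered 6, 0 and 1 in the wild-type and 2, 5 and 352 in the knockout libraries, so knockout replicate 3 held nearly all of them, at 7.81 CPM. The same library was the highest for Pax3. Its regulators stayed at the floor, with 0 fragments of Myf5 and Myod1 and 1 of Myog. Pax3 and Pax7 also mark neural crest and parts of the neural tube; in this library the crest marker Sox10 had 3 fragments, the fewest of the 6 libraries. The summed FPKM of 8 neural markers ranged from 21 to 72 in wild type and from 32.7 to 33.2 in knockout; the part of such cells in the Pax3 and Pax7 levels was not tested.

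**Figure D4:**
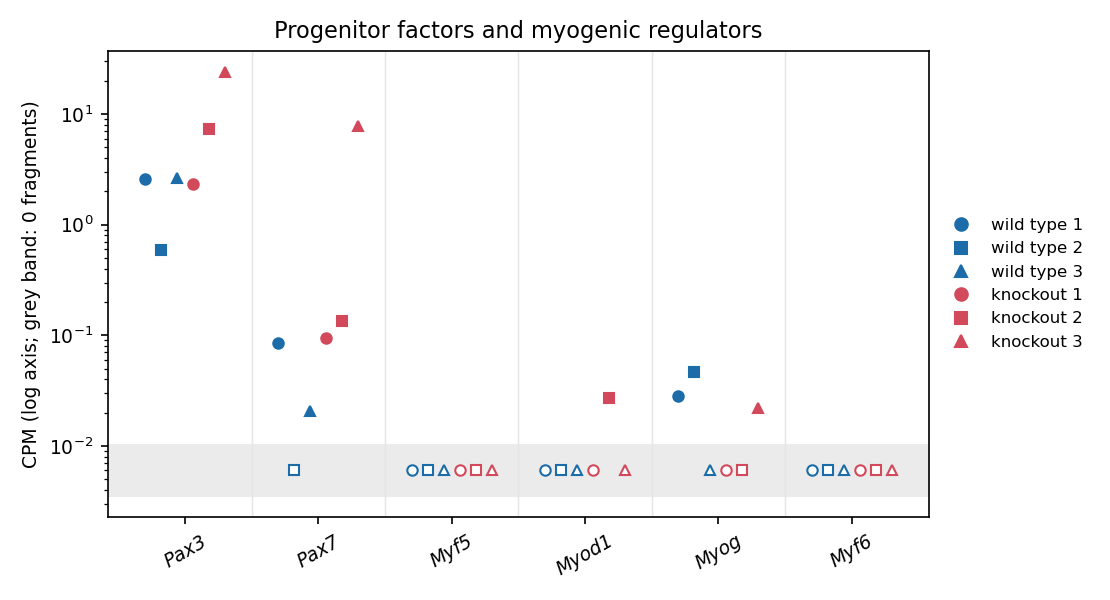
CPM of the progenitor factors Pax3 and Pax7 and of the 4 regulators in each library (log axis; open symbols in the grey band are 0 fragments). Knockout replicate 3 stands highest for Pax3 (24.1 CPM) and Pax7 (7.81 CPM), while no regulator exceeds 0.0468 CPM in any library.

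Partners and inhibitors of the regulators reached 1 FPKM in at least 1 library for 10 of 13 MEF2 factors and cofactors and 10 of 15 inhibitors. Of the 13 MEF2 factors and cofactors 11 were tested (5 positive, 6 negative, median -0.02). Mef2c, a MEF2 factor of muscle that macrophages and other cells also make, was at 4.98, 17.5 and 58.3 CPM in wild type and 6.39, 4.02 and 5.83 CPM in knockout, a log2 fold change of -2.31 (unadjusted p 0.0369 in edgeR). Its highest value was in wild-type replicate 3, the library with the highest macrophage sum, and without that library the log2 fold change was -1.05. Mef2b, at 45 ± 16.3 CPM in wild type and 59.2 ± 3.82 in knockout, overlaps Borcs8 on the same strand, and their reads cannot be told apart. The E protein Tcf12, a dimer partner of the regulators, lay between 21.6 and 47 FPKM in all libraries.

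Of 15 inhibitors 11 were tested (8 positive, 3 negative, median 0.21). Id proteins bind E proteins and keep them from the regulators, and Id3 lay between 88.7 and 242 FPKM in every library. Hes1, a Notch target that represses Myod1, was at 31.4 ± 8.81 CPM in wild type and 22.8 ± 5.53 in knockout. Snai2, a repressor that competes at E-boxes, was at 42 ± 18.6 and 28 ± 8.17 CPM. Myostatin (Mstn), the growth inhibitor that muscle secretes, had at most 2 fragments in a library.

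Fusion makes myoblasts into fibres. Of 9 fusion genes, 5 were tested (1 positive, 4 negative, median -0.12), and the broadly expressed integrin Itgb1 led at 444 to 571 FPKM. The adhesion molecule Kirrel was at 245 ± 73.8 CPM in wild type and 216 ± 6.86 in knockout, and its relative Kirrel3 at 2.82 ± 1.76 and 1.81 ± 1.05. The muscle-specific fusogen genes were near 0: Tmem8c (myomaker) had at most 2 fragments in a library.

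The sarcomeric myosins beside the members had 4 tested genes of 15, all with negative fold changes (median -0.72, against -0.05 over all loci). The adult and perinatal heavy chains Myh1, Myh2, Myh4, Myh7 and Myh8 had at most 5 fragments in any library, like Myh3 outside wild-type replicate 2. Mylk2, the skeletal myosin light chain kinase, was at 3.34 ± 1.87 CPM in wild type and 1.36 ± 0.394 in knockout, and Mylpf, the fast regulatory light chain, at 1.21 ± 0.215 and 0.823 ± 0.379. For Mylk2, wild-type replicate 1, at 1.29 CPM, lay within the knockout range.

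Thin filament genes had 8 tested of 14 (1 positive, 7 negative, median -0.48), and 3 of them were lower in knockout without overlap, a state found in 5.44% of all loci tested (5.18% were higher without overlap). Of the 93 tested genes of all muscle lists, 4 were lower without overlap (Tnnt3, Tpm3, Neb and Nppa) and 4 higher (Itga7, Mef2b, Ttn and Fabp3). Genes below the filter were not counted here. Tnnt3, the fast form of troponin T, was at 0.255, 0.867 and 0.393 CPM in the wild-type and 0.141, 0.0536 and 0.0666 CPM in the knockout libraries. Its log2 fold change was -2.58 ± 0.69 (standard error; unadjusted p 0.00944, adjusted p 0.763 in edgeR); it lies opposite Prr33, whose reads could enter it if strand was not used. Nebulin (Neb), the ruler of the thin filament, was at 1.59 ± 0.973 CPM in wild type and 0.725 ± 0.162 in knockout. The list's sum was carried by tropomyosin Tpm1, which nonmuscle cells make as well, at 529 to 1461 FPKM.

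In the Z-disc, titin and M-band list 9 of 19 genes were tested (5 positive, 4 negative, median 0.12). Myom1, myomesin of the M-band, was at 1.26, 15.4 and 3.66 CPM in wild type and 0.799, 1.1 and 1.73 CPM in knockout, highest in wild-type replicate 2 and with overlapping groups (log2 fold change -2.47, unadjusted p 0.0412 in edgeR; -0.99 without wild-type replicate 2). The anchoring protein Nrap was at 0.33 ± 0.189 and 0.145 ± 0.0847 CPM. Titin (Ttn) had between 14 and 41 fragments in a library, at most 0.00894 FPKM, and the Z-disc actinin Actn2 at most 5.

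Coupling of excitation to contraction was represented by 8 tested genes of 17 (7 positive, 1 negative, median 0.24). Its defining skeletal channels were low: Ryr1, the calcium release channel, lay between 0.0162 and 0.0516 FPKM, and Cacna1s, the voltage sensor, had at most 2 fragments. Jph2, which ties the surface membrane to the calcium store, was at 45.9 ± 17.3 CPM in wild type and 27.7 ± 12.1 in knockout, and the adaptor Stac3 at 1.14 ± 0.366 and 1.51 ± 0.404.

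At the neuromuscular junction 6 of 10 genes were tested (2 positive, 4 negative, median -0.05). Rapsn, which clusters acetylcholine receptors, was at 0.75, 1.59 and 8.53 CPM in wild type and 2.21, 0.751 and 0.577 CPM in knockout. Chrna1, the receptor's alpha subunit, was at 6.13, 0.586 and 0.352 CPM and 3.24, 6.97 and 2.99 CPM. Wild-type replicate 1 and knockout replicate 2 were the highest for Chrna1 and wild-type replicate 3 for Rapsn, whose log2 fold change was -1.64 and, without that library, -0.01. The noncoding transcript Gm13778 lies on the other strand of Rapsn, with 7 to 27 fragments in a library.

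The membrane and filament list had 9 tested genes of 13 (3 positive, 6 negative, median -0.38). Desmin (Des), the intermediate filament of all muscle types, was at 23.7, 98.3 and 82.4 CPM in the wild-type and 18.8, 11.8 and 26.4 CPM in the knockout libraries. Wild-type replicates 2 and 3 were high, and wild-type replicate 1 lay within the knockout range. Its log2 fold change was -1.84 ± 0.58 (standard error; unadjusted p 0.0199, adjusted p 0.763 in edgeR). Hspb7, a small heat shock protein of muscle, was at 4.71 ± 3.11 CPM in wild type and 1.77 ± 0.108 in knockout. Its groups overlapped too, with wild-type replicate 1, at 1.27 CPM, below every knockout library.

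In muscle energy metabolism 5 of 11 genes were tested (1 positive, 4 negative, median -0.18). The muscle creatine kinase Ckm had 2 fragments in wild-type replicate 3, 1 in knockout replicate 3 and 0 elsewhere, and myoglobin (Mb) at most 4. Fabp3, a fatty acid carrier, was at 3.24 ± 1.7 CPM in wild type and 5.13 ± 0.17 in knockout without overlap, but Zcchc17, an abundant gene, lies on its other strand. Pygm, the muscle glycogen phosphorylase, was at 0.487 ± 0.476 and 0.268 ± 0.249 CPM.

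Actc1 and Tnnt2 are also genes of the heart, so cardiac markers were read beside them. Of 13 cardiac markers 8 were tested (4 positive, 4 negative, median 0.06), and none was at 0 in all libraries. The cardiac myosin Myh6 had at most 1 fragment in a library, and the cardiac factor Nkx2-5 was at 0.0468 CPM in wild-type replicate 2 and 0 elsewhere. Others on the list were higher, and 5 of the 13 reached 1 FPKM in at least 1 library. Among these 5 were Nppb (1.77 to 7.22 FPKM), Hand2 (1.02 to 3.44 FPKM) and Tnni3, which shares its locus with Dnaaf3. Nppa, the atrial natriuretic peptide, was at 0.643 ± 0.368 CPM in wild type and 0.169 ± 0.0246 in knockout without overlap, with a log2 fold change of -1.89 (unadjusted p 0.0151 in edgeR). The antisense transcript Gm13054 overlaps Nppa, with 31, 9 and 19 fragments in the wild-type and 12, 14 and 16 in the knockout libraries. Its reads could enter Nppa if strand was not used. Tbx20 was at 1.45 ± 0.602 and 3.35 ± 2.66 CPM. The summed FPKM of the list was 9.53 to 13.8 in wild type and 7.59 to 12.7 in knockout.

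Smooth muscle genes stood far above the members. All 12 were tested and had fragments in every library, with summed FPKM of 2358 to 5739 in wild type and 1994 to 2907 in knockout, against 1.88 to 4.11 and 1.15 to 4.2 for the 9 members. All 12 fold changes were negative, against 8712 of 15673 loci tested. Their median was -0.71, against -0.05 over all loci, and -1.03 without wild-type replicate 3. Without wild-type replicate 1 or 2, 9 of 12 were negative, with medians of -0.78 and -0.38. None was called in edgeR. An unadjusted p under 0.05 in edgeR was found for 3, all lower in knockout, against 2.27% of all loci. Wild-type replicate 2 was the highest for 10 of the 12, against 26.1% of 18771 loci with at least 10 fragments. That library also led for Actc1 and Myh3. The members' sum was highest in knockout replicate 2 and in wild-type replicates 2 and 1, and lowest in knockout replicate 1.

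**Figure D5:**
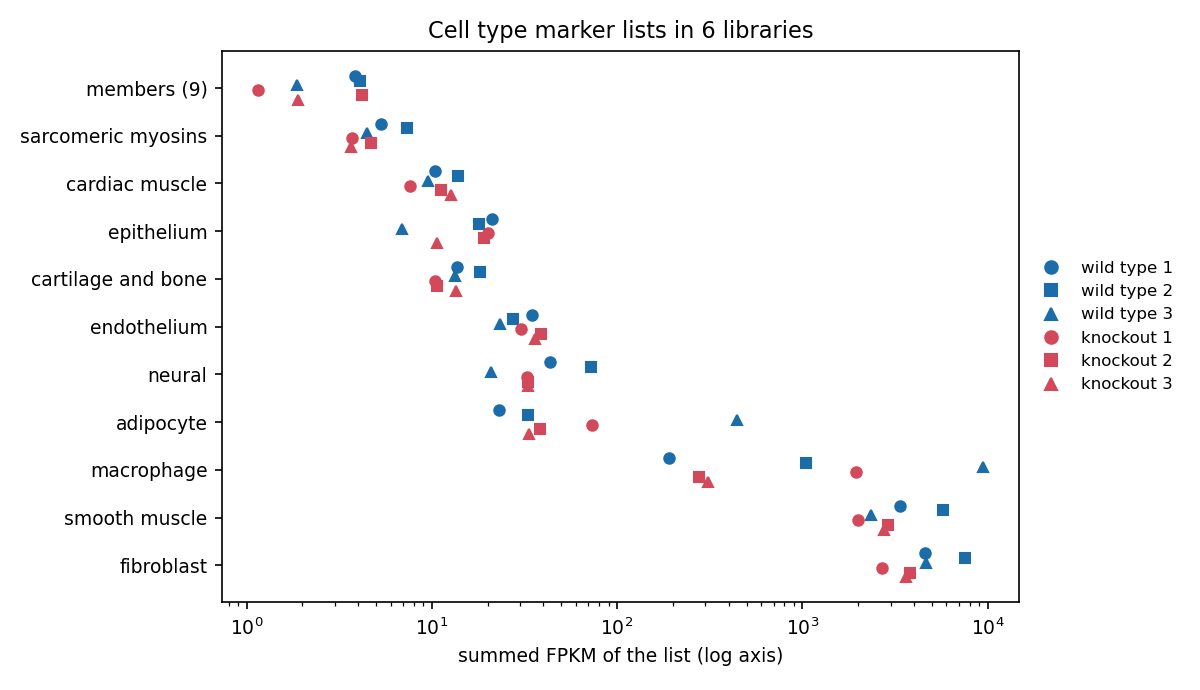
Summed FPKM of each marker list in each library (log axis; wild type blue, knockout red; circles, squares and triangles are replicates 1, 2 and 3). The 9 members sum to between 1.15 and 4.2 FPKM, the lowest of the lists drawn, and the fibroblast list to between 2708 and 7553 FPKM.

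The endothelial, epithelial, neural, adipocyte and cartilage and bone lists had sums between those of the members and of smooth muscle. The macrophage sum reached 9447 FPKM in wild-type replicate 3, above every fibroblast sum. Endothelial markers, 9 of 11 tested, summed to 23.4 to 34.6 FPKM in wild type and 30.3 to 38.8 in knockout (median log2 fold change -0.6, or -0.28 without wild-type replicate 3). Epithelial markers summed to 6.91 to 21.2 and 10.7 to 20.2 FPKM, and cartilage and bone markers to 13.3 to 18.2 and 10.4 to 13.5 FPKM. Adipocyte markers were at 23 to 442 FPKM in wild type and 33.7 to 73.5 in knockout, highest in wild-type replicate 3. The median log2 fold change was -2.67 for macrophage markers (15 of 15 negative) but 0.08 without wild-type replicate 3 (8 positive, 7 negative), and -1.61 for adipocyte markers but -0.2 without that library. It was -0.48 for neural markers (-0.23 without that library), 0.09 for epithelial (-0.42), 0.08 for cartilage and bone (-0.29) and -0.8 for fibroblast markers (-0.8). No gene of these lists was called in edgeR.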

How the data were processed

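Messenger RNA of STC1+/+ and STC1-/- fibroblasts, 3 libraries each, was sequenced with a stranded kit, per the labels' protocols. The submitters' processing notes name CASAVA 1.8.2, TopHat2 2.0.6, Cuffdiff 2.0.1 and mm10, with no roles. For each locus and library, the authors deposited an estimated count of fragments and the FPKM (fragments relative to transcript length and sequencing depth), per the file headers. The authors' deposited comparison table gives mean FPKM, a log2 fold change, a p-value and a q-value per gene; Tnnt1 and Tnnt2 were not used from it.

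Loci without a gene name (2667, 0.507% to 0.555% of fragments) and 16 marked HIDATA were left out; 1132 marked FAIL were kept, none of them a member, which left 36812. Expected counts were not whole for about 21% of values above 0 (tolerance 0.001) and were rounded. The test was edgeR's quasi-likelihood test (4.0.16, R 4.3.3; TMM factors, filterByExpr, a robust glmQLFit), without covariates and with Benjamini-Hochberg adjustment over 15673 loci at 0.05; the common biological coefficient of variation was 0.467. Approximate 95% intervals are the fold change ± 1.96 standard errors. DESeq2 1.42.0, limma 3.58.1 (voom, log2(FPKM + 1), log2(FPKM + 0.1)), RLE and upper quartile factors, other filters and leaving out each library were alternatives. Scripts were tested on simulated data. The members and lists were chosen with earlier results of these data known. Besides the members and Stc1, named genes are the 2 tested genes with the smallest p of each muscle list, and for likeness the 5 loci with the highest Pearson r and a mean log2 CPM of at least 2; others were chosen after their values were seen. Every pair of libraries differed by more than sampling noise (chi-square over degrees of freedom at least 48.9). Intervals and floors cover counting error only. Gene models are GENCODE M21 and promoters RefSeq.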

Additional observations from a re-analysis of the deposited data

How the results depend on the processing

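No member was called under any alternative run. Over all loci, DESeq2 called 61 genes and the fit on log2(FPKM + 0.1) called 1, where edgeR called 0. The fold change of Tnnt2 turned to 0.09 in limma-voom. Leaving out each library in turn gave -0.91 to 0.26 for Tnnt1, -0.37 to 0.09 for Kirrel and -1.96 to 0.38 for Pygm, with the sign turned without wild-type replicate 3, wild-type replicate 2 and wild-type replicate 3; the cause was not tested. List medians moved in the FPKM fits to -0.25 (sarcomeric myosins, + 1), -0.46 (the same list, + 0.1) and -0.20 (thin filament, + 1). In DESeq2 and without a filter, where more genes enter, they moved to -0.07 and -0.09 (Z-disc), -0.56 and -0.58 (cardiac) and -0.15 and -0.15 (all muscle lists). Leaving out each library gave medians of -0.1 to 0.44 (progenitor factors), -0.07 to 0.08 (MEF2 factors), -1.04 to -0.46 (sarcomeric myosins), -1 to -0.2 (thin filament), -0.02 to 0.33 (Z-disc) and -0.39 to 0.38 (energy metabolism). Of the other values, 365 fold changes of named genes and 163 list medians kept their direction and side of the threshold or moved by less than the spread. The threshold at 1 CPM in 3 libraries left out Tnnt1 among the members tested. Stc1 passed the threshold in DESeq2 (-7.53). No paired analysis was possible because nothing in the labels ties a library of one genotype to one of the other; the replicate numbers follow the order of deposit. Depth limits 7 members, which lie below the filter, to counts and upper limits.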

Other observations

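Some striated muscle genes below the filter were present mainly in wild-type replicates 2 and 3; they were chosen after their values were seen and have no test. Tnni2, the fast form of troponin I, had 3, 48 and 140 fragments in wild-type replicates 1 to 3 and 4, 0 and 3 in knockout replicates 1 to 3. Cav3, the caveolin of muscle, had 3, 24 and 27 fragments against 0, 3 and 1. Cox6a2, the heart and muscle form of a respiratory chain subunit, had 6, 62 and 34 against 0, 2 and 2. Tnni1, the slow form of troponin I, had 87 fragments in wild-type replicate 2 and at most 12 in each of the others. Myog had 2 and 0 fragments in wild-type replicates 2 and 3, and Myod1 had 0 in both.

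Over 77 genes of the sarcomere, coupling, junction, membrane and energy lists with at least 10 fragments in all, 18, 21 and 15 were highest in wild-type replicates 1 to 3 and 11, 5 and 7 in knockout replicates 1 to 3. Wild-type replicate 1 thus led for 23.4% of them, against 10.5% of 18771 loci, wild-type replicate 2 for 27.3%, against 26.1%, and wild-type replicate 3 for 19.5%, against 27.4%. These shares are a description, since the genes share libraries and many have few fragments.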
